A study of Mus musculus with 16 samples.

Results

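The question was which functions and cell types of the chronically injured spinal cord still differed from uninjured cord after 4 wk of atorvastatin. It was asked of 10903 genes of the 24411 in the deposited count table, and the comparison was SCI + Atorvastatin (n = 7 mice) vs. Uninjured Control (n = 2 mice). A gene entered when it had at least 10 counts in both controls and in each of the 7 SCI + Atorvastatin mice, so no gene tested lacked reads in either group. All mice were female C57BL/6J with no transgene. The SCI + Atorvastatin mice received a lateral compression to 0.25 mm at T8-9 under anaesthesia at 12 wk of age. From 2 wk after injury they were given atorvastatin daily at 10 mg/kg for 4 wk in a vehicle of saline with DMSO, PEG and Tween. The SCI + Vehicle mice (n = 7) had the same injury and the vehicle alone. Cord around the lesion was taken at 6 wk after injury, after perfusion with saline. The Uninjured Control mice had no injury, no drug and no vehicle, and their cord was taken from the corresponding site. The labels describe all mice as aged to 12 wk, and by the study's methods the cord of the controls was taken at a younger age than that of the injured mice. Injury, surgery, injections, vehicle, atorvastatin, age and any difference of segment therefore cannot be told apart in a comparison of SCI + Atorvastatin with the controls. The labels call the mice biological replicates. Total RNA of each segment was sequenced from stranded libraries made for low input, so a level is an average over every cell in the piece, and fewer cells of a type and less RNA per cell cannot be told apart.

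The 2 controls set the precision of everything that follows. The 16 libraries held 14823292 to 25579826 counts on genes, and the 2 controls, with 20211276 and 22368736, were not the shallowest. Even so, 12732 and 12356 genes had a count in the controls, against 17116 to 18562 in the SCI + Atorvastatin mice. The 2 controls differed from each other by a median of 0.66 on the log2 scale, and 33.4% of the genes tested differed between them by more than 2-fold. Pairs of SCI + Atorvastatin mice differed by a median of 0.16 to 0.22. The gap between controls was 1.16 for genes of 100 to 300 counts and 0.33 for genes over 3000 counts. Liver transcripts summed to 8826 and 1769 CPM in the controls and to 113 to 145 CPM in the SCI + Atorvastatin mice. Skeletal muscle transcripts summed to 8806 CPM in SCI + Atorvastatin replicate 2 and to 72.2 to 527 CPM in the other 6. Levels are given throughout as counts scaled to a common library total (CPM) after TMM scaling, with the controls in the order replicate 1 and replicate 2, and with the lowest, highest and median of the 7 SCI + Atorvastatin mice.

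Compression of the cord kills neurons and oligodendrocytes, cuts axons and opens the vessels at the lesion. Microglia and incoming macrophages then engulf debris, much of it myelin, which is rich in cholesterol, and hold it in lysosomes. Astrocytes around the lesion become reactive and raise intermediate filaments, while fibroblasts lay down a collagen scar. Cholesterol taken up by phagocytes is passed out again through ABC transporters under the control of liver X receptors (LXR). Cells that need cholesterol switch on its synthesis through the transcription factor SREBP2, and atorvastatin blocks that synthesis.

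Of the 10903 genes, 1890 were higher (17.3%, upregulated) and 2143 lower (19.7%, downregulated) in the treated mice than in the controls. The criteria were an absolute log2 fold change above the study's limit for a change of 25% and a Benjamini-Hochberg adjusted p below 0.05 in edgeR's quasi-likelihood test. That test takes a single spread per gene for both groups, set mostly by the 7 treated mice. Its SE and adjusted p, here and below, therefore carry little of the gap between the controls. The median log2 fold change over all genes tested was -0.028, and a group of genes is read below against that median and those percentages. All 7 mice lay above both controls in 2172 genes (19.9%) and below both in 2227 (20.4%). A limma fit that gives each group its own spread, and so carries the wide gap between the controls, called 43 genes higher and 97 lower, all of them within the first set. Groups in which it called no gene included interferon, endothelium, pericytes, TGF-beta, proteoglycans and antioxidants. They also included fatty acid synthesis, V-ATPase, myelin, oligodendrocyte precursors, glutamate genes and dorsal horn peptides. It called 1 gene each of LXR targets, inhibitory genes, cholinergic genes, voltage-gated channels, and glycolysis with the TCA cycle. On log2(TPM + 1), where the median over the same genes was 0.24 rather than near 0, limma called 2709 higher and 1097 lower. The plot of called members by group gives the outcome for 39 groups with at least 9 genes tested. Genes of microglia, complement, lysosomes, reactive astrocytes and collagen lay on the upregulated side. Genes of neurons, synapses, axons, oxidative phosphorylation and cholesterol synthesis lay on the downregulated side.

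**Figure D1:**
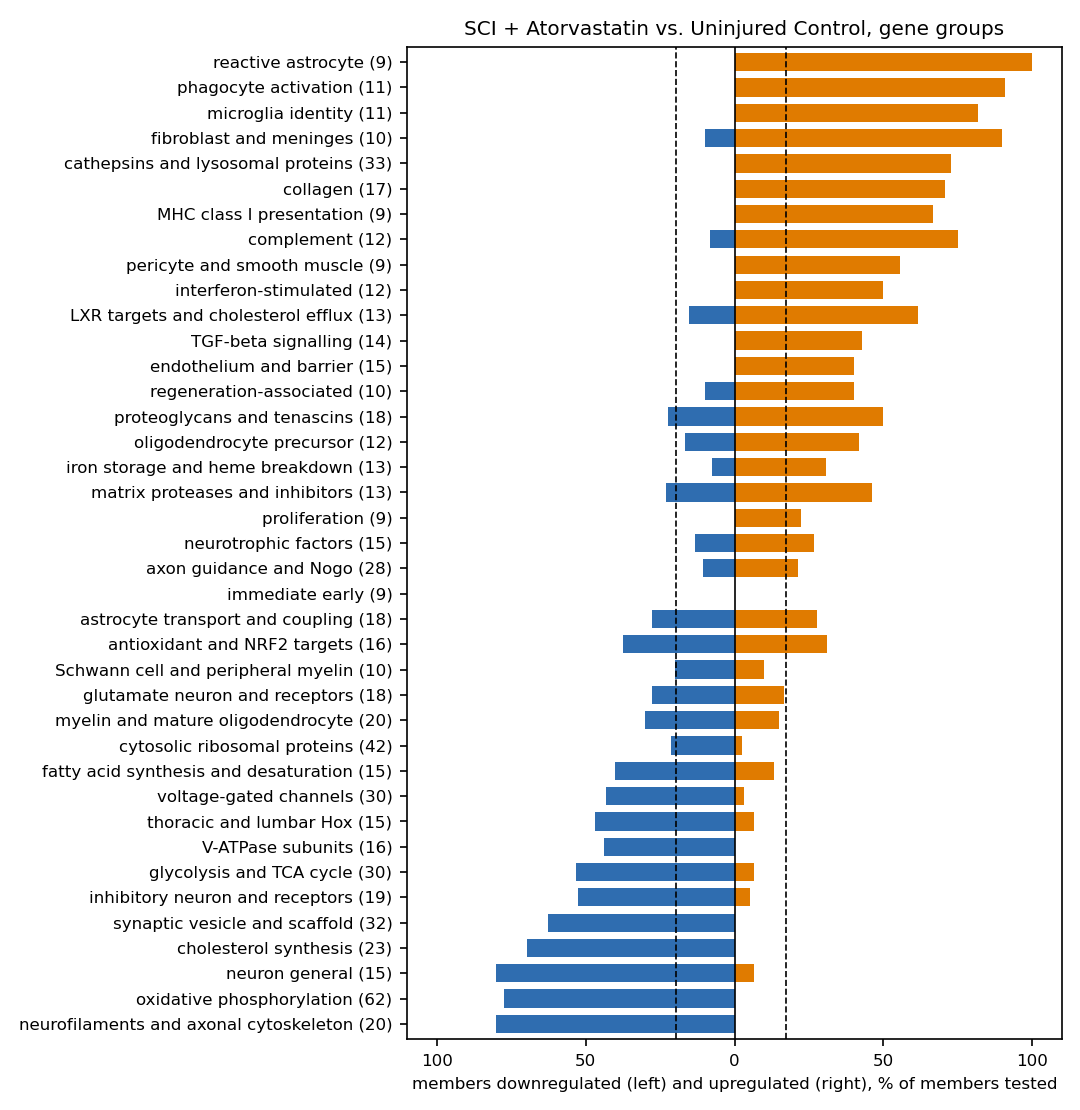
Share of the tested members of each of 39 gene groups called upregulated (right, orange) or downregulated (left, blue) for SCI + Atorvastatin vs. Uninjured Control, in percent of members tested, with the number tested beside each name. Dashed lines mark the shares over all 10903 genes, 17.3% and 19.7%. Lysosomal, microglial, complement and collagen genes pass the right line, and neuronal, mitochondrial and cholesterol synthesis genes the left one.

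The 10 upregulated genes of smallest p included Csf1r, the receptor that microglia and macrophages need to survive, and Mpeg1, which encodes a pore-forming protein of macrophages. Mpeg1 (chromosome 19, 12460779 to 12465283 of GRCm38) was at 13.5 and 5.79 CPM in the controls and 339.6 to 522 (median 408) CPM in the 7 mice (log2 fold change 5.46, SE 0.33, adjusted p = 2.58e-06). Colec12, a scavenger receptor of endothelium and phagocytes, was at 5.30 and 5.70 CPM against 62.8 to 106 (median 83.5) CPM (log2 fold change 3.97, SE 0.25, adjusted p = 3.21e-06). Slc29a3, a nucleoside transporter of lysosomes, was at 9.11 and 8.94 CPM against 47.5 to 56.2 (median 52.2) CPM (log2 fold change 2.55, SE 0.17, adjusted p = 5.12e-06). For these 3 genes every SCI + Atorvastatin mouse was several times above both controls, and for the last of them the mice also lay within a narrow range. The others were Abca1, Ctss, Serpina3n, Ctsd, Cd44 and Gfap, which are described with their groups. Of the 10 genes, 8 were also called by the fit with a spread for each group, Colec12 and Slc29a3 being the exceptions (adjusted p = 0.126 and 0.0878).

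Resident microglia were represented by 15 identity genes, of which 11 were tested. Of these, 9 were upregulated and 0 downregulated, with a median log2 fold change of 2.56. Cx3cr1, the fractalkine receptor of microglia, was at 19.3 and 26.7 CPM in the controls and 107 to 157 (median 141) CPM with atorvastatin (log2 fold change 2.58, SE 0.19, adjusted p = 7.31e-06). Csf1r was at 50.7 and 43.6 against 283 to 361 (median 301) CPM, a 6.69-fold difference. The groups did not overlap for either gene, and each was also called in the fit with a spread for each group. The 4 members left out, P2ry12, Tmem119, Siglech and Gpr34, each had counts in control replicate 1 and 0 in replicate 2. P2ry12, the purinergic receptor of surveying microglia, had 38 and 0 counts in the controls and 325 to 596 in the 7 mice, and Tmem119 had 126 and 0 against 269 to 518. Whether these homeostatic markers differed from uninjured cord was thus not tested.

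Genes of phagocyte activation rose as a group, 10 of the 11 tested being upregulated (median log2 fold change 1.63), 3 of them also by the fit with a spread for each group. Apoe, the main lipid carrier of the central nervous system, was at 4133 and 2615 CPM in the controls and 12985 to 19988 (median 16961) CPM with atorvastatin (log2 fold change 2.33, SE 0.19, adjusted p = 1.49e-05). Spp1, osteopontin, was at 119 and 135 against 497 to 746 (median 515) CPM (log2 fold change 2.17, SE 0.17, adjusted p = 1.1e-05). Axl, a receptor for apoptotic cells, was at 83.9 and 90.2 against 203 to 242 (median 227) CPM (log2 fold change 1.38, SE 0.11, adjusted p = 9.64e-06). In these 3 genes all 7 mice lay clear above both controls. Gpnmb (chromosome 6, 49036546 to 49070929), a glycoprotein of lipid-loaded macrophages, had the largest log2 fold change of the named members, with 7.23 and 2.05 CPM in the controls and 455 to 875 (median 614) CPM in the mice (log2 fold change 7.09, SE 0.48, adjusted p = 5.12e-06). Its controls differed from each other more than 3-fold, and the log2 fold change was 6.44 against replicate 1 alone and 8.25 against replicate 2 alone. Tyrobp, the signalling adaptor of TREM2, was at 8.66 and 1.51 against 57.1 to 99.2 (median 61.7) CPM (log2 fold change 3.84, SE 0.55, adjusted p = 0.000336). Of the 9 members left out, 4 had no count in either control. Trem2 itself had 90 and 0 counts in the controls and 1273 to 2374 in the 7 mice, and Cd68, a lysosomal glycoprotein of macrophages, had 0 and 72 against 2301 to 3411. Counts of 0 and 0 stood against 1197 to 1519 for Itgax, 1273 to 2181 for Lgals3, 474 to 754 for Cst7 and 1545 to 2890 for Clec7a. Across the table, 2162 genes with 10 or more counts in all 7 mice were at 0 in exactly 1 control and 1539 in both, so a 0 in these libraries was not read as absence.

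Macrophages of the borders and blood were harder to follow, since 10 of the 15 genes fell below the minimum in a control alone. Of the 4 tested, 3 were upregulated. Lyz2, lysozyme of myeloid cells, was at 25.2 and 1.32 CPM in the controls and 667 to 1274 (median 978) CPM in the mice (log2 fold change 6.31, SE 0.86, adjusted p = 0.00024). Adgre1, which encodes F4/80, was at 3.51 and 1.82 against 25.7 to 54.0 (median 36.8) CPM (log2 fold change 3.84, SE 0.38, adjusted p = 3.83e-05), and Fn1, fibronectin, at 242 and 268 against 561 to 1029.8 (median 689) CPM (log2 fold change 1.56, SE 0.22, adjusted p = 0.000276). All 7 mice were above both controls in each. Cd163, a haemoglobin scavenger receptor of perivascular macrophages, was at 1.22 and 11.8 against 7.12 to 16.0 (median 12.4) CPM and its groups overlapped (adjusted p = 0.283). All 12 lymphocyte genes in the table had 0 counts in both controls, and the highest of their medians in the 7 mice was that of Il2rg, a cytokine receptor chain, with 177 counts.

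Complement was upregulated in 9 of 12 genes tested, with 1 downregulated and a median log2 fold change of 2.11, and 5 were also called by the fit with a spread for each group. C1q, which tags synapses and debris for removal, is built from 3 chains. C1qa was at 18.6 and 37.0 CPM in the controls and 201 to 359 (median 273) CPM with atorvastatin (log2 fold change 3.30, SE 0.30, adjusted p = 2.07e-05). C1qb was at 15.4 and 25.9 against 202 to 352.1 (median 241) CPM (log2 fold change 3.65, SE 0.27, adjusted p = 7.31e-06), and C1qc at 31.6 and 38.9 against 224 to 384 (median 289.7) CPM (log2 fold change 3.03, SE 0.21, adjusted p = 5.95e-06). The 3 chains thus rose by similar factors, with each mouse more than 5-fold above both controls. C4b, the C4 component, was at 126 and 56.6 against 606 to 723 (median 668) CPM (log2 fold change 2.88, SE 0.25, adjusted p = 1.92e-05), and reads that also match C4a may be split between the genes. Factor B of the alternative pathway went the other way, Cfb being at 42.4 and 21.8 CPM in the controls and 7.32 to 17.8 (median 8.96) CPM in the mice (log2 fold change -1.53, SE 0.35, adjusted p = 0.00502), a direction that was not held on log2(TPM + 1) (0.19, adjusted p = 0.889 in limma). Cfb is also made in liver, and control replicate 1, with the higher Cfb, carried the larger sum of liver transcripts. Their part in the result was not tested.

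Receptors and kinases by which phagocytes sense antibody and debris were upregulated in all 6 of the genes tested among 14 (median log2 fold change 2.57). Fcgr2b, the inhibitory Fc receptor, was at 2.60 and 3.19 CPM in the controls and 27.5 to 46.1 (median 30.9) CPM in the mice (log2 fold change 3.53, SE 0.31, adjusted p = 1.88e-05). Lyn and Syk, kinases acting behind such receptors, were at 5.91 and 8.07 against 49.7 to 78.2 (median 56.5) CPM (log2 fold change 3.12, adjusted p = 1.07e-05) and at 6.62 and 6.66 against 24.5 to 52.0 (median 33.6) CPM (log2 fold change 2.47, adjusted p = 0.000188). Plcg2, which passes the TREM2 signal on, was at 10.6 and 17.4 against 38.8 to 52.6 (median 46.1) CPM (log2 fold change 1.74, adjusted p = 0.000214), and Vav1 at 8.45 and 13.4 against 38.4 to 60.3 (median 48.8) CPM (log2 fold change 2.18, adjusted p = 7.64e-05). No mouse overlapped with a control in any of the 5. None of the group was called by the fit with a spread for each group. Of the phagocyte NADPH oxidase, which makes superoxide, 2 of 7 genes were tested and both were upregulated. Cyba was at 2.19 and 0.958 against 28.7 to 59.1 (median 47.1) CPM (log2 fold change 4.82, adjusted p = 2.32e-05) and Ncf1 at 3.11 and 22.1 against 43.9 to 69.2 (median 54.0) CPM (log2 fold change 2.11, adjusted p = 0.0085). The catalytic subunit Cybb had 0 and 150 counts in the controls against 1106 to 2072 and was not tested.

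**Figure D2:**
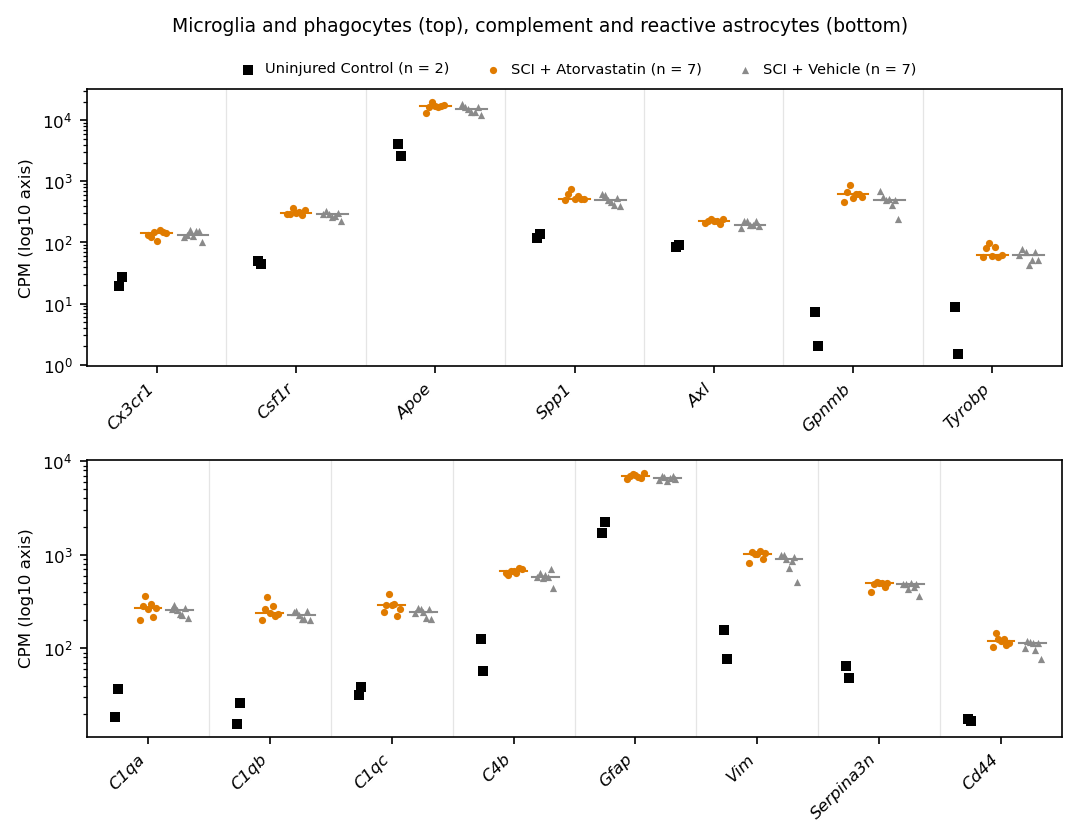
CPM of 15 named genes of microglia, phagocytes, complement and reactive astrocytes in each library on a log10 axis, with black squares for the 2 Uninjured Control mice, orange circles for the 7 SCI + Atorvastatin mice and grey triangles for the 7 SCI + Vehicle mice. Short bars mark the median of each SCI group. In all 15 genes the 7 SCI + Atorvastatin mice lie above both controls and overlap with the SCI + Vehicle mice.

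Antigen presentation by MHC class I was upregulated in 6 of 9 genes tested, by a median log2 fold change of 0.66. None of the 9 was called by the fit with a spread for each group. B2m, the invariant light chain, was at 92.6 and 40.5 CPM in the controls and 150.5 to 298 (median 206) CPM in the mice (log2 fold change 1.71, SE 0.31, adjusted p = 0.00136). H2-K1 was at 76.7 and 12.95 against 100.4 to 189.7 (median 144) CPM (log2 fold change 1.70, SE 0.48, adjusted p = 0.0163), and its controls differed from each other almost 6-fold. H2-D1 was at 6.26 and 9.53 against 17.4 to 33.8 (median 23.2) CPM (log2 fold change 1.67, SE 0.34, adjusted p = 0.00267). These MHC genes are alike in sequence, so reads may be split between them. For class II, Cd74, the invariant chain, was upregulated, at 14.0 and 6.70 against 31.7 to 87.8 (median 73.0) CPM (log2 fold change 2.60, SE 0.46, adjusted p = 0.0011). The class II chains H2-Aa, at 9.88 and 16.0 against 10.6 to 39.9 (median 23.1) CPM, and H2-Eb1, at 5.70 and 14.3 against 7.58 to 27.8 (median 22.8) CPM, overlapped between groups (adjusted p = 0.202 and 0.197). The fourth class II gene tested, Ctss, the cathepsin that trims the invariant chain, was upregulated.

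Interferon-stimulated genes were upregulated in 6 of 12 tested (median log2 fold change 0.94), and 10 more fell below the minimum in a control. Without control replicate 1 the count was 5 and without replicate 2 it was 11, with medians of 0.83 and 1.73. Irf9, a transcription factor of the interferon response, was at 1.22 and 5.52 CPM in the controls and 20.3 to 35.5 (median 24.5) CPM in the mice (log2 fold change 2.98, SE 0.51, adjusted p = 0.000948), and Gbp2, a guanylate-binding protein, at 5.55 and 6.84 against 14.3 to 31.7 (median 27.3) CPM (log2 fold change 2.07, SE 0.34, adjusted p = 0.000741). All 7 mice lay above both controls in these genes. Ifit1, in contrast, ranged from below the lower control to well above the upper one, at 9.78 and 7.71 against 6.77 to 40.1 (median 16.5) CPM (adjusted p = 0.159). Of 21 Toll-like receptor and inflammasome genes 3 could be tested, and 15 were below the minimum in a control. Myd88, the adaptor of most of these receptors, was at 15.3 and 23.1 against 10.8 to 24.8 (median 17.4) CPM (adjusted p = 0.889). Il18 was called as downregulated, at 13.2 and 25.4 against 5.79 to 15.5 (median 8.54) CPM (log2 fold change -1.001, SE 0.36, adjusted p = 0.0472), although the highest mouse was above control replicate 1. The call was lost in 6 of the 7 fits that left out a mouse, and on log2(TPM + 1) the sign was the opposite (1.06, adjusted p = 0.507 in limma). Tlr2 had 0 and 0 counts in the controls against 319 to 786. Of the chemokines, Cxcl12 was upregulated, at 22.2 and 25.1 against 60.9 to 86.4 (median 80.3) CPM (log2 fold change 1.73, SE 0.18, adjusted p = 4.95e-05). Cx3cl1, the neuronal ligand of Cx3cr1, was downregulated, at 174 and 134 against 97.4 to 129 (median 109) CPM (log2 fold change -0.47, SE 0.13, adjusted p = 0.0135).

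Astrocytes changed in 2 ways. All 9 reactive genes tested were upregulated (median log2 fold change 1.84), and 4 of them were called by the fit with a spread for each group. Gfap (chromosome 11, 102887336 to 102900912), the astrocyte intermediate filament, was at 1694 and 2240.5 CPM in the controls and 6380.4 to 7559.6 (median 6929) CPM in the mice (log2 fold change 1.84, SE 0.12, adjusted p = 5.12e-06). Vim, vimentin, was at 157 and 77.4 against 816 to 1098 (median 1031) CPM (log2 fold change 3.10, SE 0.25, adjusted p = 1.11e-05), and Cd44, the hyaluronan receptor, at 17.6 and 16.8 against 103 to 145 (median 121) CPM (log2 fold change 2.82, SE 0.17, adjusted p = 1.95e-06). Serpina3n, a protease inhibitor of reactive astrocytes, was at 65.2 and 47.8 against 404 to 517 (median 499) CPM (8.61-fold). In each of the 4 the lowest mouse exceeded the higher control by more than 2-fold. Of the 18 genes of transport and coupling, by contrast, 5 were upregulated and 5 downregulated, with a median of -0.13 (6 and 2 on log2(TPM + 1), with 2 downregulated without control replicate 1 and 8 without replicate 2). Aqp4, the water channel of astrocyte endfeet, was upregulated, at 566 and 757 against 1465 to 1939.7 (median 1538) CPM (log2 fold change 1.32, SE 0.14, adjusted p = 6.5e-05). Slc1a3, a glutamate transporter, was also upregulated (119.5 and 105 against 170.4 to 199 (median 189.5) CPM, log2 fold change 0.76, adjusted p = 0.00022), as was Sox9 (64.8 and 50.9 against 114 to 158 (median 136) CPM, log2 fold change 1.26, adjusted p = 0.000105). The main glutamate transporter Slc1a2 was at 3741 and 4356 against 3213 to 3758 (median 3397) CPM and overlapped with the controls (adjusted p = 0.0886). Slc6a11, a GABA transporter, fell from 551 and 372 CPM to 199.9 to 250.5 (median 218) CPM (log2 fold change -1.07, SE 0.13, adjusted p = 0.000112). Kcnj10, the potassium channel Kir4.1, was downregulated too, at 1013 and 919 against 555 to 708 (median 618) CPM (log2 fold change -0.61, adjusted p = 0.000902), and so was Aldoc, at 1870.1 and 1279.8 against 1015 to 1164 (median 1059) CPM (log2 fold change -0.54, adjusted p = 0.00464).

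Lysosomal genes stood out among the functions. Of 33 cathepsin and lysosomal genes tested, 24 were upregulated and 0 downregulated, with a median log2 fold change of 1.26 and 26 genes above both controls in all 7 mice, and 5 were also called by the fit with a spread for each group. Ctss (chromosome 3, 95526786 to 95556403), cathepsin S of antigen-presenting cells, was at 73.6 and 75.5 CPM in the controls and 712 to 1134 (median 854) CPM in the mice (log2 fold change 3.59, SE 0.18, adjusted p = 5.57e-07). Ctsd, cathepsin D, was at 300.2 and 251 against 2008 to 3066 (median 2246) CPM (log2 fold change 3.12, SE 0.18, adjusted p = 1.52e-06), and Ctsb, cathepsin B, at 482 and 373 against 1221 to 1789 (median 1409) CPM (log2 fold change 1.80, SE 0.16, adjusted p = 1.88e-05). The summed level of the group was 4987 and 4248 CPM in the controls and 9649.7 to 13227 CPM in the 7 mice. Every mouse thus lay well above both controls. Not all members passed the test. Among genes named after their values were seen, Lipa, the lysosomal acid lipase that frees cholesterol from its esters, was at 45.4 and 37.7 against 30.6 to 58.5 (median 50.5) CPM (adjusted p = 0.51), and Neu1, a sialidase, at 58.4 and 19.7 against 32.8 to 40.6 (median 35.2) CPM (adjusted p = 0.828). The V-ATPase is the proton pump that acidifies lysosomes and also synaptic vesicles. Of its 16 subunits tested, 0 were upregulated and 7 downregulated (median -0.35), among them Atp6v1e1, at 223 and 297 against 133 to 153 (median 147) CPM (log2 fold change -0.83, SE 0.11, adjusted p = 0.000181).

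Of 13 LXR target and cholesterol efflux genes tested, 8 were upregulated and 2 downregulated (median log2 fold change 0.97). Abca1, the transporter that loads cholesterol onto apolipoproteins, had the smallest p of all genes tested. It was at 81.6 and 68.9 CPM in the controls and 661 to 812 (median 728) CPM in the mice, a 9.98-fold difference. Abcg1, its partner, was at 40.4 and 63.8 against 125 to 166 (median 138) CPM (log2 fold change 1.45, SE 0.18, adjusted p = 0.000122). Soat1, which stores cholesterol as ester, was at 41.6 and 44.5 against 85.9 to 106 (median 94.5) CPM (log2 fold change 1.17, SE 0.13, adjusted p = 8.43e-05), and Lpcat3, a phospholipid-remodelling enzyme, at 1.88 and 1.14 against 13.03 to 25.8 (median 18.3) CPM (log2 fold change 3.59, SE 0.43, adjusted p = 0.000107). All 7 mice were above both controls in these 4. The receptors themselves were not upregulated. Nr1h3, LXR alpha, was at 17.8 and 9.71 against 5.47 to 12.99 (median 7.91) CPM (adjusted p = 0.251), and Nr1h2, LXR beta, was downregulated, at 109 and 122 against 54.3 to 72.8 (median 68.0) CPM (log2 fold change -0.79, adjusted p = 0.000904). Apoc1 was called as downregulated with 378 and 21.4 CPM in the controls against 27.6 to 55.6 (median 33.7) CPM, so that 1 control decided the call. Its log2 fold change was -3.29 against replicate 1 and 0.86 against replicate 2. Apoc1 is abundant in liver, and replicate 1 was also the control with 8826 CPM of liver transcripts. The part of liver transcripts in the Apoc1 call was not tested.

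Cholesterol synthesis had the lowest median log2 fold change of the gene lists. Of its 23 genes, all tested, 16 were downregulated and 0 upregulated, the median log2 fold change was -1.31, and 8 were also called by the fit with a spread for each group. The summed level was 1675 and 1688 CPM in the controls, which lay close together here, and 590.1 to 718 CPM in the 7 mice. Hmgcs1, which makes HMG-CoA, was at 258 and 369 CPM against 97.7 to 131 (median 119) CPM (log2 fold change -1.45, SE 0.14, adjusted p = 3.64e-05). Sqle, squalene epoxidase, was at 67.5 and 81.8 against 23.5 to 34.8 (median 26.9) CPM (log2 fold change -1.42, SE 0.17, adjusted p = 0.000106). A later step of the pathway was also lower. Msmo1, which removes methyl groups of lanosterol, was at 93.4 and 132 against 27.5 to 36.9 (median 32.9) CPM (log2 fold change -1.79, SE 0.16, adjusted p = 2.07e-05). In all 3 the highest mouse was below the lower control. Named after their values were seen, Fdps was at 115 and 84.1 against 18.3 to 33.5 (median 23.6) CPM, Fdft1 at 149.7 and 167 against 41.4 to 66.3 (median 56.3) CPM and Stard4, a carrier of sterol, at 32.3 and 63.3 against 8.75 to 17.3 (median 12.2) CPM, with log2 fold changes of -1.96, -1.48 and -1.96. The 7 members not called included Ggps1 of protein prenylation, at 21.1 and 35.03 against 33.4 to 40.2 (median 36.9) CPM, and Ebp, at 4.43 and 19.1 against 11.8 to 24.3 (median 14.3) CPM. The SCI + Vehicle mice, which had no drug, summed to 646 to 803 CPM, and between the treatments, where 0% of all genes were called, 3 of the 23 genes had an unadjusted p below 0.05 and the smallest adjusted p was 0.63.

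Regulators of this synthesis were measured too. Srebf2, which encodes SREBP2, was downregulated, at 183 and 163 against 105 to 136 (median 119) CPM (log2 fold change -0.52, SE 0.11, adjusted p = 0.004), and Insig1, which holds SREBPs back and is itself one of their targets, was at 93.2 and 73.1 against 30.6 to 42.6 (median 39.0) CPM (log2 fold change -1.13, SE 0.16, adjusted p = 0.000354). Scap, the escort of SREBPs, was at 81.2 and 107 against 63.5 to 78.8 (median 66.2) CPM (log2 fold change -0.46, adjusted p = 0.021). Srebf1, which drives fatty acid synthesis, was upregulated, at 108 and 112 against 126 to 164 (median 149) CPM (log2 fold change 0.45, SE 0.13, adjusted p = 0.0154). Among 15 fatty acid genes 2 were upregulated and 6 downregulated (median -0.42), the latter 10 without control replicate 2. Acly, which supplies cytosolic acetyl-CoA, was at 365.6 and 431 against 219 to 265 (median 246) CPM (log2 fold change -0.69, SE 0.10, adjusted p = 0.000392), and Fads1, a desaturase, at 254 and 229.6 against 115 to 158 (median 136) CPM (log2 fold change -0.81, SE 0.11, adjusted p = 0.000292). Fasn, fatty acid synthase, was at 610.3 and 376 against 309 to 536 (median 362) CPM and its groups overlapped (adjusted p = 0.16).

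Promoter sequence is shown for a gene of each opposing group, because SREBP2 is known to act through the sterol regulatory element and the lysosomal regulator TFEB through the CLEAR element. RefSeq sequence of GRCm38.p6 was searched on both strands in windows of 250 bases before to 50 bases after the start site. The sterol regulatory element was searched as TCACNCCAC and the CLEAR element as TCACGTGA, and they share their first 4 letters. The first was found in 388 of 27025 genes (1.44%), and in 1 of the 16 cholesterol synthesis genes that had a promoter in the table (6.25%), 1 of 26 lysosomal genes (3.85%) and 0 of 7 genes of SREBP regulation. The second was found in 304 genes (1.12%), in 3 of 26 lysosomal genes (11.5%) and in none of the 16 cholesterol synthesis genes or the 7 of SREBP regulation. Below are the 250 bases before the start site of Hmgcs1, which fell, and of Ctsd and Gla, which rose, 5′ to 3′ on the strand of the gene, with each match in capitals. The match starts at position -137 in Hmgcs1 (chr13:119690101-119690350, plus strand), at -99 in Ctsd (chr7:142387828-142388077, minus strand) and at -228 and -195 in Gla (chrX:134601006-134601255, minus strand).
Hmgcs1: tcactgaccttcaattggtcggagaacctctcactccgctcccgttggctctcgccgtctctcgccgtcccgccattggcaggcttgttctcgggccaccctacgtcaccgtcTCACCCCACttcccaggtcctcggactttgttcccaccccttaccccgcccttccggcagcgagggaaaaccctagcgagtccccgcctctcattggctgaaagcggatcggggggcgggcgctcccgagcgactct
Ctsd: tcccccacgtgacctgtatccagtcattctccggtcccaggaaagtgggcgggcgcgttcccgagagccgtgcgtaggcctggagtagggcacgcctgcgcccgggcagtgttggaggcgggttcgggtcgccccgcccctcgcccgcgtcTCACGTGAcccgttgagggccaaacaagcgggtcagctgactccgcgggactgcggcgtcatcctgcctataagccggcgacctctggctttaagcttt
Gla: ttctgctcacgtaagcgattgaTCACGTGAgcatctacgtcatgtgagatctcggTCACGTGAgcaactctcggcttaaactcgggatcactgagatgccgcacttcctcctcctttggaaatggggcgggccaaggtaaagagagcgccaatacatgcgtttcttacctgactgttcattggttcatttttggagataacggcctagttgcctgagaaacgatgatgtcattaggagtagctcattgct

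Gla, alpha-galactosidase, was at 6.57 and 7.43 CPM in the controls and 12.3 to 21.8 (median 16.5) CPM in the mice (log2 fold change 1.27, SE 0.30, adjusted p = 0.00598), and the third lysosomal gene with the element, Ctsa, at 81.4 and 42.8 against 173 to 227 (median 192) CPM (log2 fold change 1.67, SE 0.21, adjusted p = 0.00014). Both, like Ctsd, were above the controls in all 7 mice, and Gla was chosen for its sequence from among the lysosomal genes. A match is a run of letters and was not tested as a binding site.

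**Figure D3:**
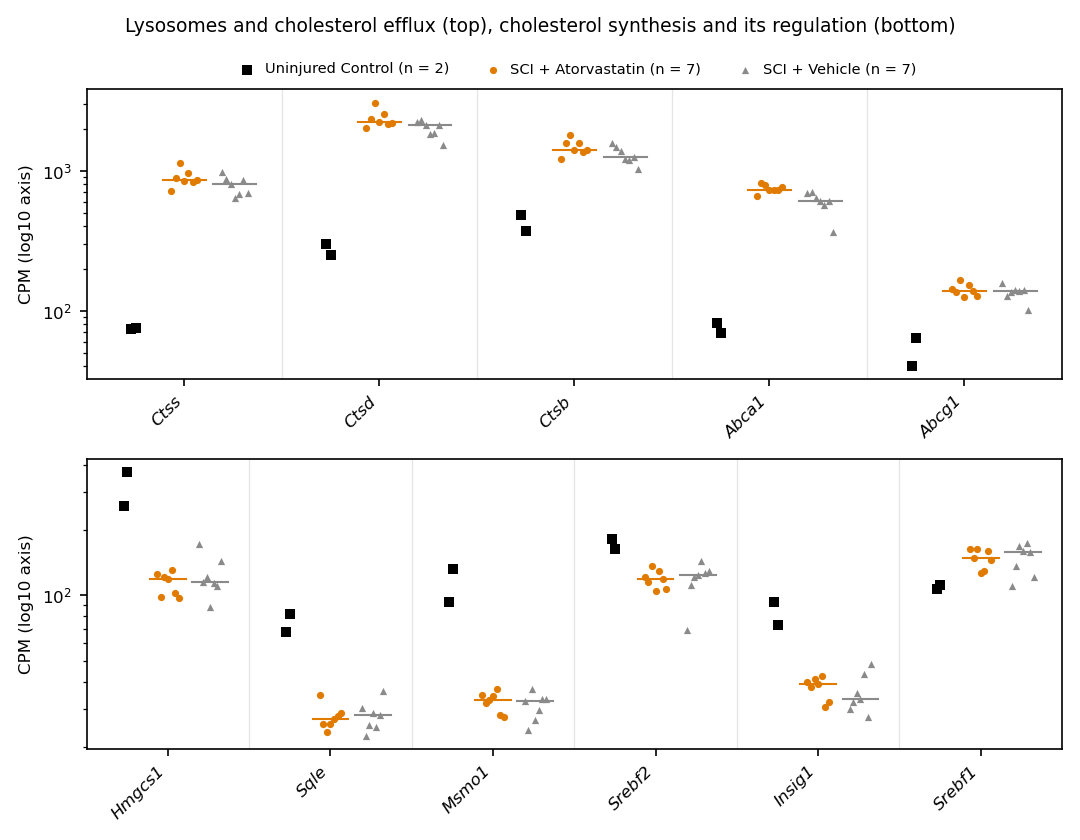
CPM on a log10 axis of 5 genes of lysosomes and cholesterol efflux (top) and 6 genes of cholesterol synthesis and its regulation (bottom) in each library, with black squares for Uninjured Control, orange circles for SCI + Atorvastatin and grey triangles for SCI + Vehicle. Short bars mark the median of each SCI group. The 5 genes at the top lie above both controls in all 7 SCI + Atorvastatin mice, and at the bottom all but Srebf1 lie below them.

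Neuronal genes lay on the downregulated side. Of 15 general neuronal genes, 12 were downregulated and 1 upregulated (median log2 fold change -0.84), and 2 of the 12 were also called by the fit with a spread for each group. Snap25, of the vesicle fusion machinery, was at 2261 and 2668 CPM in the controls and 1109 to 1432 (median 1325) CPM in the mice (log2 fold change -0.93, SE 0.11, adjusted p = 9.22e-05). Rbfox3, which encodes NeuN, was at 256 and 167 against 82.3 to 127 (median 108) CPM (log2 fold change -0.96, SE 0.18, adjusted p = 0.00155), and Tubb3, neuronal tubulin, at 424 and 429.9 against 218 to 258 (median 238) CPM (log2 fold change -0.84, SE 0.085, adjusted p = 4.05e-05). No mouse reached the lower control in any of the 3. Thy1, Uchl1 and Stmn2 had log2 fold changes of -0.89, -0.95 and -0.76. The upregulated member was Snhg11, a long non-coding RNA, at 193 and 256 against 499 to 999.6 (median 741) CPM (log2 fold change 1.68, SE 0.27, adjusted p = 0.000687).

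By transmitter, 4 of 8 cholinergic genes tested, 10 of 19 inhibitory genes, 5 of 18 glutamate genes and 4 of 7 dorsal horn peptide genes were downregulated. Chat, which makes acetylcholine in motor neurons, was at 23.3 and 65.7 CPM in the controls and 15.9 to 19.6 (median 16.9) CPM in the mice (log2 fold change -1.34, SE 0.28, adjusted p = 0.00335). The vesicular acetylcholine transporter Slc18a3 was at 78.4 and 41.0 against 12.2 to 25.7 (median 20.9) CPM (log2 fold change -1.58, SE 0.29, adjusted p = 0.0015). The 2 controls disagreed on motor neurons, Chat being higher in replicate 2 and Slc18a3 in replicate 1, but all 7 mice lay below both. Slc32a1, which loads GABA and glycine into vesicles, was at 309 and 232 against 88.8 to 118 (median 98.5) CPM (log2 fold change -1.40, SE 0.12, adjusted p = 1.92e-05). Of the GABA-synthesising enzymes, Gad2 was downregulated, at 105 and 125 against 58.6 to 91.1 (median 78.8) CPM (log2 fold change -0.60, adjusted p = 0.0153), while Gad1, at 136 and 113 against 86.0 to 115 (median 99.1) CPM, overlapped with the controls (adjusted p = 0.125). Slc12a5, the chloride transporter KCC2 that keeps GABA inhibitory, was at 622 and 607 against 295 to 432 (median 362) CPM (log2 fold change -0.73, SE 0.13, adjusted p = 0.00101). Gabrb1, a GABA receptor subunit, was upregulated, at 12.4 and 18.7 against 33.3 to 47.0 (median 38.7) CPM (log2 fold change 1.35, SE 0.22, adjusted p = 0.000727). The vesicular glutamate transporter Slc17a6 was at 173 and 187 against 87.3 to 133 (median 112) CPM (log2 fold change -0.65, SE 0.14, adjusted p = 0.00354). On log2(TPM + 1) the glutamate genes turned to 5 higher and 2 lower, and the inhibitory genes to 3 and 5, and 1 dorsal horn peptide gene was lower. Without control replicate 1 the glutamate genes gave 5 higher and 8 lower. Receptors for glutamate went both ways, with Gria1 and Grik3 downregulated (log2 fold change -0.65 and -1.01) and Grm5, Grm7 and Grik2 upregulated (0.57, 0.69 and 1.49). Of the peptides, Sst was at 121 and 91.3 against 43.2 to 62.4 (median 54.9) CPM (log2 fold change -0.97, adjusted p = 0.00147), Penk at 191 and 219.5 against 118 to 151 (median 146) CPM (log2 fold change -0.55, adjusted p = 0.00291), and Tac1, substance P, at 16.3 and 11.5 against 7.48 to 12.9 (median 8.63) CPM with overlap (adjusted p = 0.126).

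Genes of synapses, axons and channels lay on the same side. Of 32 synaptic vesicle and scaffold genes 20 were downregulated and 0 upregulated (median -0.56). Cplx1 (chromosome 5, 108518554 to 108550024), complexin 1, was at 1675 and 1597 CPM in the controls and 618 to 776 (median 691) CPM in the mice (log2 fold change -1.22, SE 0.10, adjusted p = 1.1e-05), and Vamp1, a vesicle SNARE, at 777 and 730.3 against 364 to 419.9 (median 395) CPM (log2 fold change -0.93, SE 0.084, adjusted p = 2.07e-05). Syp, Syn1 and Syn2 had log2 fold changes of -0.93, -0.85 and -0.93, all called. Of 20 axonal cytoskeleton genes 16 were downregulated (median -0.57), and the fit with a spread for each group called 2 of them and 2 of the synaptic genes. The neurofilament light chain Nefl was at 3477 and 3782 against 1711 to 2245 (median 1915) CPM (log2 fold change -0.90, SE 0.10, adjusted p = 6.92e-05), the heavy chain Nefh at 2607 and 3176 against 1235 to 1733 (median 1382) CPM (log2 fold change -1.01, SE 0.13, adjusted p = 0.000131) and Kif5a, a motor of axonal transport, at 3744 and 4212 against 1556 to 2054 (median 1874) CPM (log2 fold change -1.06, SE 0.10, adjusted p = 3.76e-05). In these 5 genes the controls lay close together and all 7 mice well below them. Of 30 voltage-gated channel genes 13 were downregulated and 1 upregulated (median -0.30). On log2(TPM + 1) 12 synaptic, 10 axonal and 7 channel genes were downregulated. The sodium channel beta subunit Scn2b fell (-1.27 on the log2 scale), Cacna2d1, the target of gabapentin, was upregulated (0.75), and the pore-forming Scn1a, at 382 and 584 against 326 to 432 (median 399) CPM, was not called (adjusted p = 0.127).

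Some genes that mark position along the cord also differed from the controls. Hox genes are expressed in an ordered pattern from neck to tail, and those of paralog group 10 mark lower cord. Hoxd10 (chromosome 2, 74691924 to 74695105), normally of lumbar cord, was at 49.7 and 35.9 CPM in the controls and 2.05 to 4.26 (median 3.55) CPM in the 7 mice (log2 fold change -3.72, SE 0.30, adjusted p = 1.11e-05). Hoxd9 was at 33.2 and 25.5 against 6.87 to 11.7 (median 8.64) CPM (log2 fold change -1.74, SE 0.24, adjusted p = 0.000291), and Hoxb8 at 186 and 181 against 77.6 to 113 (median 95.5) CPM (log2 fold change -0.93, SE 0.14, adjusted p = 0.000481). Hoxc10 and Hoxa10, named after their values were seen, were at 133 and 83.4 against 34.95 to 51.7 (median 49.5) CPM and at 66.2 and 20.6 against 14.5 to 20.7 (median 18.3) CPM. Hoxc8 was higher in the mice, at 44.1 and 33.8 against 52.0 to 77.0 (median 61.9) CPM (log2 fold change 0.71, SE 0.20, adjusted p = 0.0152), and Hoxc6, at 12.98 and 36.0 against 22.2 to 45.02 (median 29.3) CPM, overlapped (adjusted p = 0.486). Of the 15 Hox genes, 7 were downregulated and 1 upregulated, and Hoxd10 was at 2.92 to 11.8 (median 5.33) CPM in the SCI + Vehicle mice. Both controls therefore held more Hoxd10, Hoxd9 and Hoxc10 transcript than any of the 7 mice. The lumbar cord has larger motor and sensory nuclei than the thoracic cord. The part of the segment in the fall of neuronal genes was not tested. Transcripts of dorsal root ganglion summed to 139 and 116 CPM in the controls and 58.3 to 83.0 CPM in the mice. Prph, peripherin of motor and sensory neurons, was at 108 and 106 against 35.2 to 48.4 (median 44.3) CPM (log2 fold change -1.26, SE 0.14, adjusted p = 7.64e-05), while Calca, at 31.5 and 6.38 against 13.7 to 27.0 (median 17.4) CPM, overlapped.

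**Figure D4:**
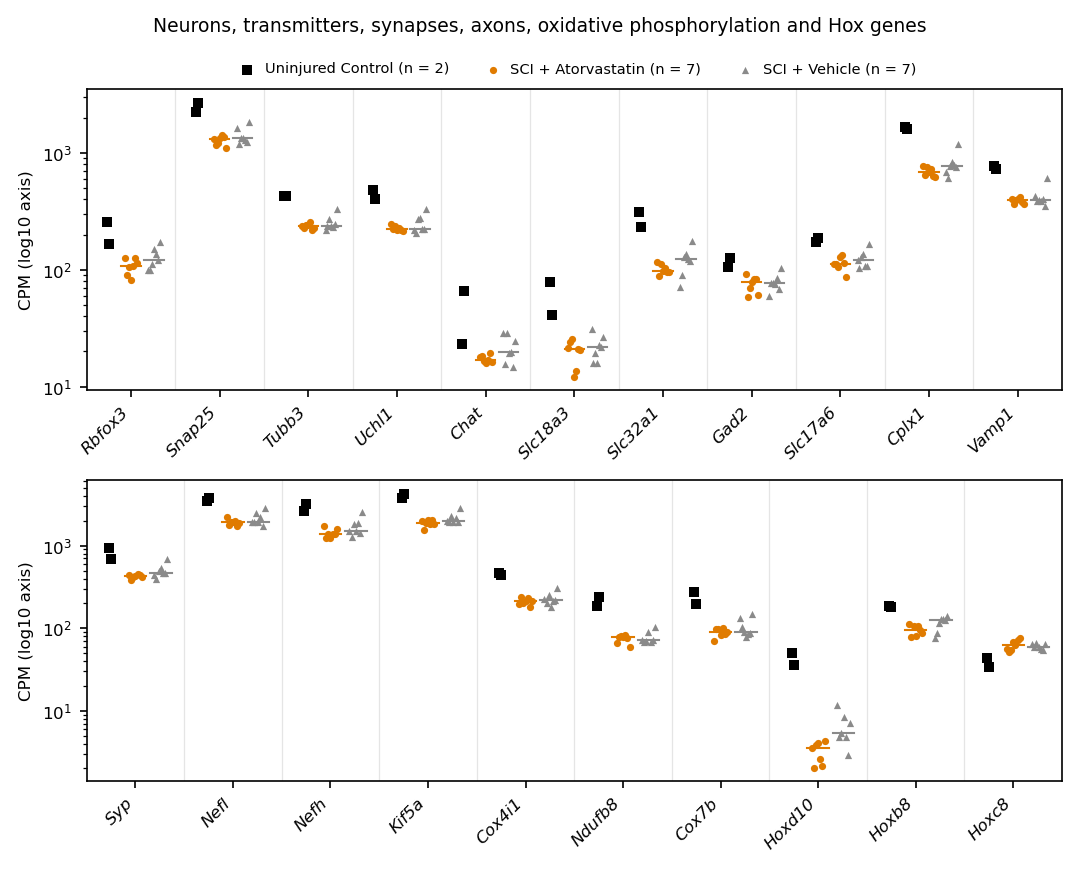
CPM on a log10 axis of 21 genes of neurons, synapses, axons, transmitters, oxidative phosphorylation and segment identity (Hox) in each library, with black squares for Uninjured Control, orange circles for SCI + Atorvastatin and grey triangles for SCI + Vehicle. Short bars mark the median of each SCI group. All genes shown except Hoxc8 lie below both controls in the 7 SCI + Atorvastatin mice, Hoxd10 by the widest margin.

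Energy metabolism was downregulated in a large share of genes. Of 62 nuclear genes of oxidative phosphorylation, all tested, 48 were downregulated and 0 upregulated (median log2 fold change -0.74), and 6 were also called by the fit with a spread for each group. Cox4i1 (chromosome 8, 120668222 to 120674207), a subunit of complex IV, was at 472 and 444 CPM in the controls and 183 to 236 (median 211) CPM in the mice (log2 fold change -1.11, SE 0.10, adjusted p = 2.07e-05). Ndufb8 of complex I was at 186 and 237 against 58.7 to 82.7 (median 77.7) CPM (log2 fold change -1.49, SE 0.14, adjusted p = 2.4e-05), and Cox7b of complex IV at 273 and 194 against 70.8 to 100.3 (median 90.6) CPM (log2 fold change -1.37, SE 0.14, adjusted p = 5.11e-05). Sdhb of complex II and Uqcrc1 of complex III fell as well (-0.89 and -0.73 on the log2 scale). Ndufs1, the large core subunit of complex I, was at 136 and 139 against 112 to 167 (median 138) CPM with full overlap (adjusted p = 0.84). The summed level was 12929.6 and 9628 CPM in the controls, so replicate 1 was the higher, and 6083 to 7316 CPM in the mice. The median log2 fold change was -0.94 against replicate 1 alone and -0.51 against replicate 2 alone. On log2(TPM + 1), 30 of the 62 were called lower.

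Of 30 genes of glycolysis and the TCA cycle 16 were downregulated and 2 upregulated (median -0.41), with 6 downregulated on log2(TPM + 1), 10 without control replicate 1 and 20 without replicate 2. Eno2, the neuronal enolase, was at 850.5 and 670.1 against 361 to 429 (median 395) CPM (log2 fold change -0.93, SE 0.10, adjusted p = 6.85e-05), Mdh1, malate dehydrogenase, at 757 and 529 against 353.8 to 427 (median 381) CPM (log2 fold change -0.74, adjusted p = 0.000729) and Hk1, hexokinase 1, at 348.3 and 424 against 234 to 266 (median 247) CPM (log2 fold change -0.64, adjusted p = 0.000424). The lactate transporter Slc16a1 was upregulated, at 47.4 and 35.7 against 113 to 147 (median 126) CPM (log2 fold change 1.61, SE 0.15, adjusted p = 2.96e-05), with no overlap. Ckmt1, the mitochondrial creatine kinase, was one of the 10 downregulated genes of smallest p, at 512 and 555 against 178 to 243 (median 187) CPM (log2 fold change -1.41, SE 0.12, adjusted p = 1.81e-05). Others among them were Flrt1, an adhesion protein of axon guidance (147 and 159.8 against 39.1 to 52.5 (median 47.5) CPM, log2 fold change -1.68, adjusted p = 9.64e-06), Bex2 (362 and 336 against 141 to 175 (median 143) CPM, log2 fold change -1.23, adjusted p = 1.07e-05), Pcp4l1 (log2 fold change -1.19), Pmm1 of mannose metabolism (-1.40) and 2010107E04Rik (-1.50), beside Cplx1, Hoxd10 and the liver gene Pzp. Cytosolic ribosomal proteins gave 9 downregulated and 1 upregulated of 42, below the share over all genes on the upregulated side and near it on the other. Their median log2 fold change was -0.46 against control replicate 1 alone and 0.091 against replicate 2 alone, with 22 downregulated in the first of these, so the direction rests on the control, and on log2(TPM + 1) 9 were called higher and 6 lower.

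Myelin differed little by comparison. Of 20 genes of mature oligodendrocytes 3 were upregulated and 6 downregulated, a median of -0.12, with the balance turned on log2(TPM + 1) (3 higher, 1 lower) and without control replicate 2 (7 and 3), and 10 lower without replicate 1. Mbp, myelin basic protein, was at 8117 and 8664 CPM in the controls and 5938 to 6857 (median 6594) CPM in the mice (log2 fold change -0.34, SE 0.082, adjusted p = 0.00667). Mog was downregulated (139.6 and 134 against 88.2 to 112 (median 97.2) CPM, log2 fold change -0.44, adjusted p = 0.0119) and Cldn11, a tight junction protein of myelin, upregulated (89.5 and 159.9 against 183 to 211 (median 206) CPM, log2 fold change 0.71, adjusted p = 0.00732). Fa2h, which makes the hydroxylated lipids of myelin, fell the furthest of the named members, at 107 and 215 against 67.3 to 83.1 (median 76.2) CPM (log2 fold change -1.11, SE 0.19, adjusted p = 0.000984). Of the 12 precursor genes tested 5 were upregulated and 2 downregulated. Pdgfra, the growth factor receptor of precursors, was at 56.9 and 49.7 against 80.5 to 116 (median 106) CPM (log2 fold change 0.96, SE 0.17, adjusted p = 0.00103). Pdgfra is counted among the fibroblast genes as well, and which cells gave its rise was not tested. Gpr17, of cells that begin to differentiate, was at 22.2 and 26.7 against 57.7 to 68.5 (median 63.2) CPM (log2 fold change 1.39, SE 0.16, adjusted p = 8.32e-05), whereas Bcas1 and Olig1 were downregulated (-0.49 and -0.57 on the log2 scale). Olig2, at 54.5 and 17.2 against 22.4 to 39.5 (median 35.4) CPM, lay between the controls (adjusted p = 0.819). Of 10 Schwann cell genes tested, Cdh19 was upregulated (15.1 and 12.04 against 36.9 to 46.0 (median 40.3) CPM, log2 fold change 1.59, adjusted p = 0.000108). Prx, periaxin of peripheral myelin, was at 163 and 105 against 45.6 to 91.2 (median 87.3) CPM (log2 fold change -0.84, adjusted p = 0.0294), downregulated but not among the calls on log2(TPM + 1).

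Fibroblasts of the meninges and of the scar were represented by 10 genes tested, of which 9 were upregulated and 1 downregulated (median log2 fold change 2.09). Of 17 collagens tested 12 were upregulated and 0 downregulated (median 2.005). Col1a1, of fibrillar collagen I, was at 32.9 and 70.9 CPM in the controls and 104 to 590.4 (median 278) CPM in the mice (log2 fold change 2.53, SE 0.59, adjusted p = 0.00597). Col3a1 (chromosome 1, 45311538 to 45349706) was at 33.3 and 40.1 against 153 to 464 (median 263) CPM (log2 fold change 2.86, SE 0.46, adjusted p = 0.000624), Col6a1 at 6.31 and 7.07 against 51.3 to 183 (median 66.9) CPM (log2 fold change 3.65, adjusted p = 0.000299) and Col16a1 at 15.5 and 25.7 against 88.8 to 141 (median 106) CPM (log2 fold change 2.43, adjusted p = 6.88e-05). Fmod, fibromodulin, was at 7.38 and 31.4 against 103 to 151 (median 124) CPM (log2 fold change 2.73, adjusted p = 0.000646). Dcn, decorin, was at 50.3 and 8.48 against 85.6 to 272 (median 173) CPM (log2 fold change 2.56, SE 0.60, adjusted p = 0.00607), and Mgp, matrix Gla protein, at 7.54 and 12.6 against 47.6 to 171 (median 93.4) CPM (log2 fold change 3.41, SE 0.51, adjusted p = 0.000452). Cd248, endosialin, was the downregulated member, at 29.6 and 26.7 against 8.48 to 15.0 (median 10.5) CPM (log2 fold change -1.27, SE 0.26, adjusted p = 0.00306). All 7 mice lay above both controls in the upregulated genes named here, and the spread among them was wide. The fibroblast genes summed to 423 and 396 CPM in the controls and to 1019 to 2553 CPM in the mice. The highest sum was in replicate 2, which also held the skeletal muscle transcripts and 226 CPM of adipose transcripts against 10.9 to 14.4 CPM in the other 6 mice. Without replicate 2, 8 of the fibroblast genes and 12 of the collagens were upregulated. None of either group was called by the fit with a spread for each group.

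**Figure D5:**
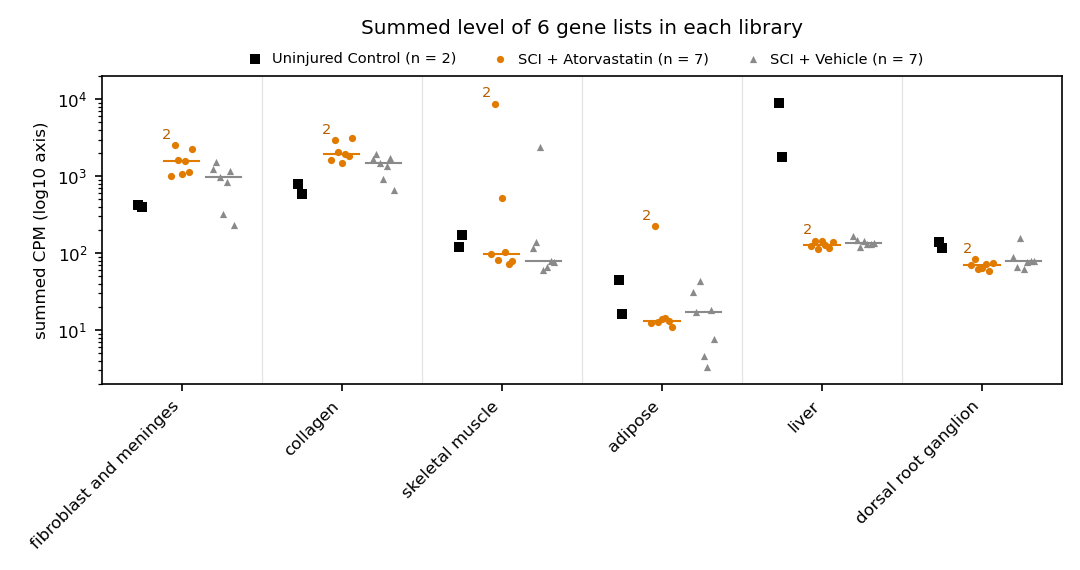
Summed CPM of 6 gene lists (fibroblast and meninges, collagen, skeletal muscle, adipose, liver, dorsal root ganglion) in each library on a log10 axis, with black squares for Uninjured Control, orange circles for SCI + Atorvastatin, grey triangles for SCI + Vehicle, and the replicate number beside SCI + Atorvastatin replicate 2. Replicate 2 is the highest SCI + Atorvastatin mouse for fibroblast (2553 CPM), muscle (8806 CPM) and adipose (226 CPM) genes, and the controls are highest for liver.

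Vessels changed in part. Of 15 endothelial genes tested 6 were upregulated and 0 downregulated (median 0.33). Vwf, von Willebrand factor, was at 26.9 and 12.2 CPM in the controls and 35.9 to 70.5 (median 57.0) CPM in the mice (log2 fold change 1.46, SE 0.35, adjusted p = 0.00664), Pecam1 at 15.7 and 8.03 against 20.9 to 37.5 (median 28.8) CPM (log2 fold change 1.28, SE 0.32, adjusted p = 0.00861) and Abcb1a, the efflux pump of the blood-brain barrier, at 59.5 and 43.1 against 85.4 to 132 (median 92.7) CPM (log2 fold change 0.99, SE 0.20, adjusted p = 0.0029). Cldn5, its tight junction claudin, was at 34.2 and 8.98 against 16.1 to 28.7 (median 22.6) CPM, between the controls (adjusted p = 0.994). Of 9 pericyte and smooth muscle genes tested 5 were upregulated, among them Pdgfrb (22.4 and 16.4 against 33.4 to 56.7 (median 42.5) CPM, log2 fold change 1.24, adjusted p = 0.00227), Rgs5 (19.8 and 17.2 against 28.1 to 52.0 (median 37.3) CPM, log2 fold change 1.09, adjusted p = 0.00489) and Smtn (17.5 and 10.6 against 26.0 to 56.6 (median 37.5) CPM, log2 fold change 1.48, adjusted p = 0.0035). Without SCI + Atorvastatin replicate 2, 4 were called. Ciliated ependymal cells line the central canal. Of their 16 genes 6 were tested and 3 upregulated (2 without any 1 of the 7 mice, 1 without control replicate 1), such as Rsph1 at 0.866 and 3.65 against 4.44 to 9.89 (median 7.25) CPM (log2 fold change 1.64, adjusted p = 0.0287), while Foxj1, their master regulator, was at 31.5 and 40.1 against 20.3 to 39.2 (median 33.0) CPM with overlap (adjusted p = 0.594).

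In the matrix around neurons and scar, 9 of 18 proteoglycan and tenascin genes were upregulated and 4 downregulated, against 7 and 0 on log2(TPM + 1). Tnc, tenascin C of scar, was at 11.2 and 8.98 CPM in the controls and 35.4 to 53.7 (median 43.5) CPM in the mice (log2 fold change 2.12, SE 0.24, adjusted p = 7.75e-05), and Bgn, biglycan, at 30.2 and 26.6 against 67.5 to 137 (median 85.8) CPM (log2 fold change 1.73, SE 0.28, adjusted p = 0.00072). Cspg4, the proteoglycan NG2 of precursors and pericytes, was at 13.8 and 1.14 against 48.0 to 76.8 (median 70.1) CPM (log2 fold change 3.16, SE 0.66, adjusted p = 0.00329). Among the members called lower, Ncan was at 161 and 73.2 against 50.1 to 71.9 (median 64.0) CPM (log2 fold change -0.92, adjusted p = 0.00833), Bcan at 414 and 315 against 215 to 309.8 (median 274) CPM (log2 fold change -0.43, adjusted p = 0.0355) and Hapln4 at 155 and 153 against 71.7 to 112 (median 95.8) CPM (log2 fold change -0.69, adjusted p = 0.00692). Acan, aggrecan, was called as downregulated (log2 fold change -0.86, adjusted p = 0.0277) on the strength of control replicate 2, its values being 29.8 and 81.0 CPM against 26.5 to 34.3 (median 28.9) CPM. Ncan rested on control replicate 1, with a log2 fold change of -0.24 without it and -1.38 without replicate 2, and the Bcan call was lost without replicate 1 (-0.22). Of 14 TGF-beta genes tested 6 were upregulated (11 without control replicate 1), including the receptors Tgfbr1 (54.4 and 19.0 against 93.8 to 119 (median 112) CPM, log2 fold change 1.56, adjusted p = 0.00203) and Tgfbr2 (7.43 and 32.4 against 92.9 to 129 (median 103) CPM, log2 fold change 2.46, adjusted p = 0.000967). The ligand Tgfb1 had 0 and 289 counts in the controls against 386 to 1155 and was not tested. Of 13 protease and inhibitor genes 6 were upregulated (4 without SCI + Atorvastatin replicate 2) and 3 downregulated (1 without control replicate 2 and on log2(TPM + 1)). Adam17, the sheddase of TNF, was at 10.03 and 11.6 against 42.6 to 69.5 (median 55.7) CPM (log2 fold change 2.39, SE 0.22, adjusted p = 2.38e-05), and the inhibitors Timp2 and Timp3 were upregulated (0.52 and 0.80 on the log2 scale). Mmp17 was called lower (log2 fold change -1.60, adjusted p = 0.0078) with 13.2 and 66.0 CPM in the controls, the first of which lay among the mice at 10.3 to 15.6 (median 12.6) CPM.

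Growth and stress genes were mixed. Among growth factors, Igf1 was at 23.0 and 5.52 CPM in the controls and 99.3 to 179 (median 139) CPM in the mice (log2 fold change 3.26, SE 0.46, adjusted p = 0.000317), Igf2 at 37.0 and 44.7 against 118 to 249 (median 210.4) CPM (log2 fold change 2.23, SE 0.31, adjusted p = 0.000257) and their binding protein Igfbp5 at 139 and 155 against 422 to 669.9 (median 522) CPM (log2 fold change 1.88, SE 0.17, adjusted p = 2.33e-05). All 7 mice were above both controls in the 3 genes. The neurotrophin receptors Ntrk2 (443 and 545 against 397 to 472 (median 416) CPM) and Ntrk3 (64.2 and 122 against 65.9 to 97.2 (median 79.1) CPM) were not called (adjusted p = 0.169 and 0.578), nor was Bdnf (adjusted p = 0.292), and the receptors Cntfr and Ret were downregulated (-0.96 and -0.72 on the log2 scale). Of 10 regeneration-associated genes tested, Hspb1, a small heat shock protein, Klf6, Stat3 and Jun were upregulated (2.06, 1.09, 0.72 and 0.59). Jun overlapped with the controls, at 94.3 and 56.6 against 91.6 to 126 CPM. A further 5 members fell below the minimum in a control. Among genes not tested, Atf3 had 0 and 0 counts in the controls against 368 to 540 in the mice. Gap43, the growth cone protein, was at 89.4 and 82.6 against 69.0 to 97.2 (median 77.1) CPM and Sox11 at 14.2 and 19.9 against 11.0 to 30.0 (median 15.2) CPM, both with overlap (adjusted p = 0.562 and 0.864), and Basp1 was downregulated (-0.85). Of axon guidance genes 6 of 28 were upregulated, near the share over all genes, and 3 downregulated (12 and 7 without control replicate 1). Plxnb2, a semaphorin receptor, had the smallest p (101 and 112 against 192 to 252 (median 215) CPM, log2 fold change 1.07, SE 0.12, adjusted p = 6.31e-05), and Efnb3 and Lingo1, an inhibitor of myelination and axon growth, were downregulated (-0.63 and -0.76).

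Of 9 proliferation genes tested 2 were upregulated (22.2%), near the share of 17.3% over all genes, with a median log2 fold change of 0.42. They were Mki67, a mark of dividing cells, at 15.5 and 20.9 CPM against 38.3 to 65.3 (median 48.4) CPM (log2 fold change 1.48, SE 0.26, adjusted p = 0.0011) and Ccnd2, cyclin D2, at 31.2 and 46.8 against 80.1 to 114 (median 92.6) CPM (log2 fold change 1.2996, SE 0.19, adjusted p = 0.000345). Cdkn1a, p21, was at 3.11 and 10.03 against 17.4 to 24.6 (median 20.1) CPM (log2 fold change 1.69, SE 0.39, adjusted p = 0.0058). Ftl1, the ferritin light chain, was upregulated (213 and 148 against 339 to 582 (median 489) CPM, log2 fold change 1.37, SE 0.20, adjusted p = 0.000411). Fth1, the heavy chain, was at 3599 and 3485 against 2296 to 3237 (median 2724) CPM (log2 fold change -0.34, SE 0.12, adjusted p = 0.0439), a call lost without either control, without any 1 of 5 of the 7 mice, with no TMM and on log2(TPM + 1). Hmox1, which breaks down heme, was at 15.4 and 2.92 against 19.5 to 29.9 (median 23.8) CPM (log2 fold change 1.43, SE 0.47, adjusted p = 0.0327) with controls 5-fold apart. Among antioxidant genes 5 of 16 were upregulated and 6 downregulated, against 8 and 3 on log2(TPM + 1), and 8 were upregulated without control replicate 1. Nfe2l2, which encodes NRF2, Gsr and the metallothionein Mt2 rose (1.19, 1.36 and 1.20 on the log2 scale), while Gclm of glutathione synthesis, Srxn1 and Gstm1 fell (-0.95, -0.99 and -0.70). None of 9 immediate early genes was called, Fos being at 12.5 and 13.3 against 14.5 to 22.1 (median 15.4) CPM and Egr1 at 38.9 and 32.0 against 22.5 to 43.0 (median 32.4) CPM.

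Liver transcripts in the controls were set apart from these results. Of 50 liver genes listed, 3 passed the minimum. Itih3 was at 245 and 144 CPM in the controls and 77.8 to 105 (median 83.7) CPM in the mice (log2 fold change -1.12, SE 0.17, adjusted p = 0.000538), Hp, haptoglobin, at 44.2 and 14.2 against 0.613 to 12.4 (median 3.69) CPM (log2 fold change -2.86, SE 0.79, adjusted p = 0.0145) and Rbp4, retinol-binding protein 4, at 84.7 and 15.5 against 12.5 to 31.6 (median 19.6) CPM (adjusted p = 0.0595). Pzp, an inhibitor of proteases made in liver, had the smallest p of all downregulated genes, at 268 and 49.7 against 0.927 to 2.74 (median 1.23) CPM (log2 fold change -6.69, SE 0.47, adjusted p = 6.23e-06), and was assigned to liver after its values were seen. In all 4 genes the control with more liver transcript was the higher of the 2.

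The direct test of SCI + Atorvastatin vs. SCI + Vehicle asked whether any of these genes also differed between the treatments. Of the 10903 genes 0 passed an adjusted p of 0.05 in edgeR, 848 had an unadjusted p below 0.05, and DESeq2 called 0 with 860 below 0.05. The smallest adjusted p was 0.597 in edgeR and 0.0685 in DESeq2. Of the 4033 genes called against the controls, 474 had an unadjusted p below 0.05 between treatments. Both comparisons with Uninjured Control share the same 2 mice, so the levels are set side by side. Cholesterol synthesis summed to a median of 681 CPM with atorvastatin and 686 CPM with vehicle, lysosomal genes to 10596 and 10295 CPM, microglial genes to 1341 and 1244 CPM, and neuronal genes to 4782 and 5023 CPM. The log2 difference between treatments was -0.13 (SE 0.11, unadjusted p = 0.275, adjusted p = 0.815) for Hmgcs1, 0.31 (SE 0.10, unadjusted p = 0.00737, adjusted p = 0.597) for Abca1 and 0.079 (SE 0.054, unadjusted p = 0.159, adjusted p = 0.732) for Gfap. Each of these differences was smaller than the same gene's difference from the controls. Of the gene lists, collagens held the most genes with an unadjusted p below 0.05, 13 of 17, with a median log2 difference of 0.57 toward atorvastatin, and none passed the adjustment (smallest adjusted p 0.597). The SCI + Vehicle mice ranged from 673 to 1942 CPM in summed collagen and the SCI + Atorvastatin mice from 1484 to 3135 CPM, so the ranges overlapped. SCI + Vehicle replicates 4 and 7 were lowest, at 912.6 and 672.7 CPM, and the others lay at 1351 to 1942 CPM. The same 2 mice had the lowest sums of fibroblast genes (326.6 and 235.5 CPM), and replicate 4 had the fewest counts of all libraries. Their part in the difference was not tested, and the 17 collagens were measured in the same mice. Col3a1 had a log2 difference of 1.19 (SE 0.42, unadjusted p = 0.00942, adjusted p = 0.597).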

How the data were processed

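Total RNA of spinal cord was sequenced from 7 SCI + Atorvastatin, 7 SCI + Vehicle and 2 Uninjured Control mice. The authors deposited whole-number read counts per gene and, in a second table, TPM values (transcript abundance scaled by gene length and library total). The submitters' processing notes name FastQC 0.12.1, Trimmomatic 0.38, STAR 2.5.4b, RSEM 1.3.1 and the mm10 genome, and the step that gave whole-number counts is not given in the sources used here. No deposited column was left out for lack of a sample (0 columns), and groups and replicate numbers came from the labels.

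Genes with at least 10 counts in both controls and all 7 SCI + Atorvastatin mice were tested on the deposited counts with edgeR 4.0.16 (TMM, glmQLFit and glmQLFTest, two-sided) in R 4.3.3, with Benjamini-Hochberg adjustment over all of them. A gene was called, as in the study, at an adjusted p below 0.05 and a change of more than 25%. SCI + Atorvastatin vs. SCI + Vehicle was fitted the same way on the same genes. Levels are CPM on TMM-scaled totals, and sums over a list use every member in the table. limma 3.58.1 gave the fit with a spread for each group (voom with group quality weights) and the fit of log2(TPM + 1), with a pseudocount of 1, and DESeq2 1.42.0 the Wald test. Other settings were the size factors, the count minimum, the fold change limit, a replicate block and leaving out each mouse. The scripts were tested on simulated counts. Positions came from GRCm38 (10568 of the tested genes matched) and promoters from RefSeq. Plots were drawn with Python 3.11.15 and matplotlib 3.10.9.

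The gene lists and the members described were chosen with earlier results of these data known. Genes were named by a rule: the 10 genes of each direction with the smallest p, of each list the first 3 tested as written and up to 3 called in each direction with the smallest p, and all tested liver genes. Some genes that fall under it are not reported here. List members below the count minimum are named only with their counts, and the rule did not fix which of them to name. Other genes named outside the rule are said to have been chosen after their values were seen or for their sequence. A count of 0 allows up to 3 counts, which covers counting error only. Genes alike in sequence (MHC, C4, Fc receptors) are uncertain where reads could be split.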

Additional observations from a re-analysis of the deposited data

Results flagged for a closer look

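In 10 of the 216 genes described, a single SCI + Atorvastatin mouse lay farther from the other 6 than Dixon's test allows at the 95% level on the log2 scale, and chance gives about 1 in 20. Replicate 3 was highest for Bex2 at 175 CPM (next 144.0) and for Scap at 78.8 CPM (next 69.2). Replicate 2 was highest for Fasn at 536 CPM (next 386) and lowest for Kif5a at 1556 CPM (next 1837) and Hoxc10 at 35.0 CPM (next 48.7). Replicate 7 was highest for Col6a1 at 183 CPM (next 85.8). Replicate 6 was lowest for Prph at 35.2 CPM (next 42.9), replicate 4 for Foxj1 at 20.3 CPM (next 29.5), replicate 1 for Gbp2 at 14.3 CPM (next 22.8) and replicate 5 for Stat3 at 112 CPM (next 137). None of these mice crossed to the other side of the controls in a gene that was called.

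Of 22 sums over gene lists, 5 held such a library. Skeletal muscle genes summed to 8806 CPM in SCI + Atorvastatin replicate 2 (next 527 CPM) and to 2407 CPM in SCI + Vehicle replicate 3 (next 141 CPM). Adipose genes summed to 226 CPM in SCI + Atorvastatin replicate 2 (next 14.4 CPM), and dorsal root ganglion genes to 158 CPM in SCI + Vehicle replicate 3 (next 88.8 CPM). Oxidative phosphorylation genes summed to 8582 CPM in SCI + Vehicle replicate 7 (next 7180 CPM), still below both controls.

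Outside the genes tested, 1539 genes had 10 or more counts in each of the 7 SCI + Atorvastatin mice and no count in either control. They were picked for that pattern, and the zeros of the controls were not read as absence.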

How the results depend on the processing

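The number of genes called higher and lower (1890 and 2143) stayed within 1.5 times under DESeq2 (2161 and 2352), edgeR with DESeq2's size factors (1831 and 2230), no TMM (1965 and 2000), a minimum of 50 counts (1838 and 2031), a mean TPM above 1 in both groups (1817 and 1884) and a fit of all 3 groups (2152 and 2425). With at least 1 count in any library, where 20725 genes were tested, 4642 were called higher. The fit with a spread for each group called 43 and 97, the fit of log2(TPM + 1) 2709 and 1097, and a limit of 1 on the log2 fold change left 1068 and 661. Leaving out 1 mouse gave 1677 to 3263 higher and 1886 to 2940 lower. The highest counts came without a control, 3140 and 2785 without replicate 1 and 3263 and 2940 without replicate 2, in fits that assume the remaining control to vary like the 7 mice. Between the treatments 0 genes were called in each of the 17 fits made, with 583 to 1253 at an unadjusted p below 0.05.

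With the replicate number as a block 405 genes were called higher and 122 lower, of which 391 and 122 were also called without it. The deviations of same-numbered mice had r = -0.014 and -0.0109 for numbers 1 and 2. With 2 controls the deviations of the controls mirror each other, so these values cannot decide whether a batch was shared. The labels give no pairing and replicate numbers above 2 hold no control, so the block says nothing of a weaker effect.

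On log2(TPM + 1) the sign turned for Cfb (0.19) and Il18 (1.06). Leaving out 1 mouse moved the log2 fold change from -0.72 to 0.94 for Olig2, -0.67 to 1.26 for Cldn5, -1.09 to 1.20 for Rarres2, -3.29 to 0.86 for Apoc1, -0.77 to 1.53 for Calca and -1.41 to 0.034 for Acan, the sign turning without control replicate 2 for Acan and without control replicate 1 for the others. The cause was not tested. Of the 225 named genes that were called, 123 were called in every setting other than the fit with a spread for each group, the block and those without a control. With 3 counts as the limit of detection, values below 0.117 to 0.149 CPM could not be told from 0 by counting error alone. In the controls a 0 also occurred far above that limit, Glb1 being at 31.5 CPM in replicate 1 and 0 CPM in replicate 2. Low values of the controls are therefore less certain than this limit implies.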
